A study of Homo sapiens with 12 samples.

Results

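Polyamine synthesis and catabolism was followed through 9 genes, taken by symbol from the platform annotation: ODC1, AMD1, SRM, SMS, SAT1, SMOX, OAZ1, OAZ2 and AZIN1. They are 9 of the 20046 genes with an annotated probe, and 9 of the 11414 genes that could be tested. Together they have 14 probes, of which 13 passed the filter on dim probes (detection p-value under 0.05 on at least 3 of 12 arrays). The 1 probe left out, of the 3 for SMOX, was detected on 0 arrays. The brightest probe of each of the 9 genes was detected on all 12 arrays, so no member entered through 1 group alone.

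The cells were VCaP, an established human prostate cancer line derived from a vertebral metastasis, which responds to androgen. All cultures grew in complete medium, whose composition the labels do not give, and were harvested at 24 h. There were 4 groups of 3 arrays: 0.1 nM DHT (dihydrotestosterone, the potent natural androgen), 10 µM enzalutamide (an androgen receptor antagonist), 10 µM enzalutamide with 100 nM dexamethasone (a synthetic glucocorticoid), and the DMSO vehicle. The series calls the triplicates biological but does not say how the cultures were separated, so p-values measure the spread between these cultures. A single line and a single dose and time of each agent limit what the groups can stand for.

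Polyamines are small cations made from ornithine and from S-adenosylmethionine. Ornithine decarboxylase makes putrescine, and the synthases SRM and SMS extend it to spermidine and then spermine with aminopropyl groups that AMD1 provides. SAT1 and SMOX run the path backwards, while antizymes hold ornithine decarboxylase in check and the antizyme inhibitor frees it. Prostate epithelium makes polyamines for secretion as well as for its own growth, and in rodents androgens are known to sustain prostatic ornithine decarboxylase.

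Luminal prostate genes were detected: 5 of 8 listed luminal markers (KRT8, KRT18, HOXB13, TMPRSS2 and ERG) stood above background on all 12 arrays and KLK3 on 9, while 0 of the 4 listed basal markers passed the filter. Of 5 stromal markers, ACTA2 was detected on all 12 arrays and the other 4 on at most 1. Of 5 immune markers, CD14 and CD68 were detected on all 12 and CD79A on 4, PTPRC on 1 and CD3E on 0. Of 3 endothelial markers, VWF was detected on 4 arrays, PECAM1 on 3 and CDH5 on 0. FKBP5, a target of both the androgen and the glucocorticoid receptor, changed with each treatment: by 2.39 on the log2 scale with DHT against vehicle, by -0.96 with enzalutamide against vehicle, and by 1.36 with the combination against enzalutamide. The 3 probes of NR3C1, the glucocorticoid receptor gene, were detected on 0 arrays. Mean intensity ran from 199 (vehicle replicate 3, the dimmest array) to 344, and from 15852 to 18352 of 47322 probes were detected per array. The background probes that no array detected were used to divide the arrays into 2 technical sets that the labels do not name. The cut was at 0 on the first principal component of their ranks, which held 12.5% of the variance. The first set held 2 DHT, 1 enzalutamide, 1 combination and 2 vehicle arrays. Vehicle replicate 3 stood far from the rest of the second, and whether the sets are batches is not known. The members' results were therefore also computed within each set.

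The starts of the 3 genes with the largest change with DHT against vehicle, and of SRM, which was not called, are shown because the regulators described further on include MYC and MAX, whose known binding sequence is CACGTG. The windows are the 250 bases before a RefSeq transcription start, in GRCh38.p14, 5′ to 3′ on the gene's strand, and capitals mark CACGTG. ODC1 is shown at the downstream of 2 listed starts (chr2:10448013-10448262, minus strand), SRM at chr1:11060019-11060268 (minus strand), SMS at chrX:21940459-21940708 (plus strand) and SAT1 at chrX:23782923-23783172 (plus strand).
ODC1: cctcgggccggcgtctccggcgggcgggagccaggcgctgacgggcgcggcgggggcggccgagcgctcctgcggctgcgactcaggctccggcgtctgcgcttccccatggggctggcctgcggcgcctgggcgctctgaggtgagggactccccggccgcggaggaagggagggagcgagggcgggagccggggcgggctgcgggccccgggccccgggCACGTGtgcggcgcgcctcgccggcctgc
SRM: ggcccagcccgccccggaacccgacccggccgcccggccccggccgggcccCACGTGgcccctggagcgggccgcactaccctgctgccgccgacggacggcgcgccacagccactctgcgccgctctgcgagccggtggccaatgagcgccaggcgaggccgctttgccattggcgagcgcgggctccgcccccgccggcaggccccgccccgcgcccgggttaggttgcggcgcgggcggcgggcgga
SMS: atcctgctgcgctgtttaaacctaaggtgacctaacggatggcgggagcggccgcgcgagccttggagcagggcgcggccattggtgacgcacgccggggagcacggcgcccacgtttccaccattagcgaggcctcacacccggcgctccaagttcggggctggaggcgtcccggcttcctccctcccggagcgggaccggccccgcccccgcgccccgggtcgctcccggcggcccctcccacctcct
SAT1: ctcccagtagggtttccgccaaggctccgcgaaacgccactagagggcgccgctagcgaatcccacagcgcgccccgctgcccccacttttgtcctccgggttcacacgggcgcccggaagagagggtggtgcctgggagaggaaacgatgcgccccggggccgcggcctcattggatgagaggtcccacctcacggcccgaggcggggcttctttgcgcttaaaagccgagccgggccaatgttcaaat
CACGTG, which reads the same on both strands, lies 29 bases before the ODC1 start shown and 199 bases before the SRM start, and in neither the SMS nor the SAT1 window. The window of the other ODC1 start holds 0 matches. Windows were given for 7 of the 9 genes, 10 windows in all, and 2 of the 10 hold CACGTG, against 6.34% of 35116 RefSeq windows of the same length. The letters AGAACA, a common part of androgen and glucocorticoid receptor elements, were searched on both strands and lie in 0 of the 10, against 12.4% of all windows. A match of letters is a description and not a bound site, and the absence of a match says only that the letters are not in these 250 bases.

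With DHT, 5 of the 9 genes rose against vehicle and 0 fell at an adjusted p under 0.05 (limma, Benjamini-Hochberg over all 11414 genes). They were ODC1, AMD1 and SMS of the synthetic arm and SAT1 and SMOX of the catabolic arm, and the spermidine synthase SRM, both antizymes and AZIN1 were not called. Of all genes tested, 21.7% were called in this comparison, 11% upwards, so calls were common on these arrays. The DHT and vehicle arrays did not overlap for 6 of the 9, 5 above and 1 below, where 37.2% of all genes did not (19.3% above and 17.9% below). The median log2 change of the 9 was 0.36, beside 0.01 over all genes. Whole cultures were measured, in which a change in all cells and a change in the share of some cells cannot be told apart.

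**Figure D1:**
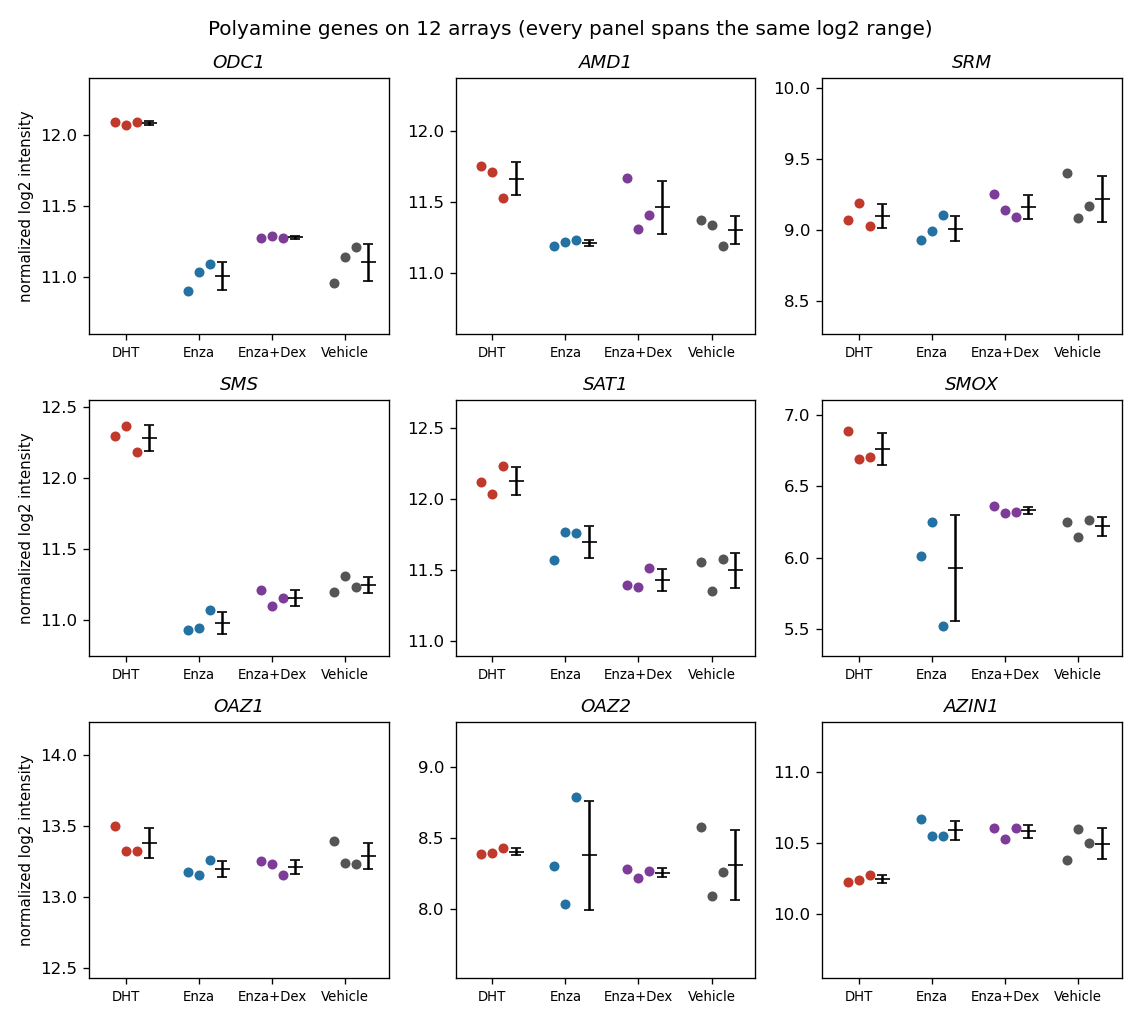
Normalized log2 intensity of each gene's brightest probe on the 12 arrays, by group, with the mean and SD (n = 3) beside the points and the same log2 span in every panel. ODC1, SMS, SAT1 and SMOX stood above all other arrays in all 3 DHT cultures, while the SRM, OAZ1 and OAZ2 points of DHT and vehicle overlapped.

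ODC1, the decarboxylase that starts the pathway, had normalized log2 intensities of 12.09, 12.07 and 12.09 in DHT, 10.90, 11.04 and 11.09 in enzalutamide, 11.28, 11.29 and 11.28 in the combination, and 10.96, 11.14 and 11.21 in vehicle. The 3 DHT arrays lay close together and above all 9 others. The rise with DHT was 0.98 ± 0.09 (log2, SE), or 1.97-fold with a 95% interval of 1.73 to 2.26 (limma, adjusted p = 1.53e-05). It ranked 115 of 11414 changes from the highest. Within the first technical set the change was 1.03 and within the second 0.88 (limma, adjusted p = 0.0541, 1 DHT and 1 vehicle array).

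SMS, the synthase that makes spermine, had 12.30, 12.37 and 12.18 in DHT, 10.93, 10.94 and 11.07 in enzalutamide, 11.21, 11.10 and 11.16 in the combination, and 11.20, 11.31 and 11.23 in vehicle. Again the DHT arrays stood apart, and here the enzalutamide arrays were also the lowest of all. The DHT change was 1.03 ± 0.08 (log2, SE), 2.05-fold with a 95% interval of 1.80 to 2.33 (limma, adjusted p = 8e-06), at rank 94 of 11414. A second SMS probe gave 12.02, 12.01 and 11.91 in DHT and 11.01, 10.93 and 11.05 in vehicle, a change of 0.98 ± 0.09. Both probes thus moved by nearly the same amount. Within the 2 technical sets the change of the brighter probe was 1.08 and 0.95 (limma, adjusted p = 0.0517 in the second).

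SAT1, the acetyltransferase that marks spermidine and spermine for export or for back-conversion, had 12.12, 12.03 and 12.23 in DHT, 11.57, 11.77 and 11.76 in enzalutamide, 11.39, 11.38 and 11.52 in the combination, and 11.56, 11.35 and 11.58 in vehicle. No DHT array overlapped any other group. The DHT change was 0.63 ± 0.10 (log2, SE), 1.55-fold with a 95% interval of 1.34 to 1.80 (limma, adjusted p = 0.000736). Within the technical sets it was 0.62 and 0.65 (limma, adjusted p = 0.0464 and 0.0949).

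SMOX, which oxidises spermine back to spermidine, was dim: its brightest probe had unnormalized intensities between 117 and 224, though its detection p-value never exceeded 0.0026. It had normalized log2 values of 6.89, 6.69 and 6.71 in DHT, 6.01, 6.25 and 5.52 in enzalutamide, 6.36, 6.31 and 6.32 in the combination, and 6.25, 6.14 and 6.26 in vehicle. The DHT arrays were the highest, and the enzalutamide arrays scattered widely. The DHT change was 0.55 ± 0.15 (log2, SE), 1.46-fold with a 95% interval of 1.16 to 1.83 (limma, adjusted p = 0.0224). The call ended without DHT replicate 1 (0.48, limma, adjusted p = 0.0787) or without vehicle replicate 2 (0.51, limma, adjusted p = 0.0654), and within both technical sets (0.60 and 0.45). With no background correction the change was 0.27 and passed. A second SMOX probe, detected on 9 arrays, had a value of 0.37 ± 0.21 and was not called.

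AMD1, which decarboxylates S-adenosylmethionine to give the aminopropyl donor, had 11.75, 11.71 and 11.53 in DHT, 11.18, 11.22 and 11.23 in enzalutamide, 11.67, 11.31 and 11.40 in the combination, and 11.37, 11.33 and 11.19 in vehicle. The DHT and vehicle arrays did not overlap, but 1 combination array reached the DHT range. The change was 0.36 ± 0.11 (log2, SE), 1.29-fold with a 95% interval of 1.10 to 1.51 (limma, adjusted p = 0.0291). This was the weakest of the 5 calls by its adjusted p: it ended without DHT replicate 1 (0.32), DHT replicate 2 (0.34), vehicle replicate 2 (0.38) or vehicle replicate 3 (0.31), and within both technical sets (0.38 and 0.34). Under median scaling over all probes it was 0.60 and passed.

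SRM, the spermidine synthase between these steps, did not pass the test. It had 9.07, 9.19 and 9.03 in DHT, 8.93, 8.99 and 9.11 in enzalutamide, 9.25, 9.14 and 9.09 in the combination, and 9.40, 9.08 and 9.17 in vehicle. Its DHT change was -0.12, with a 95% interval of -0.34 to 0.10, which excludes a rise of the size seen for SMS or ODC1. The groups overlapped throughout.

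The antizymes, which bind ornithine decarboxylase and lead it to the proteasome, were also not called. OAZ1 was bright, with 13.50, 13.32 and 13.32 in DHT, 13.17, 13.16 and 13.26 in enzalutamide, 13.25, 13.24 and 13.16 in the combination, and 13.39, 13.24 and 13.23 in vehicle. Its DHT change was 0.09, with a 95% interval of -0.10 to 0.28 (limma, adjusted p = 0.504). OAZ2 had 8.39, 8.39 and 8.43 in DHT, 8.31, 8.04 and 8.79 in enzalutamide, 8.28, 8.22 and 8.26 in the combination, and 8.58, 8.09 and 8.26 in vehicle. The OAZ2 interval with DHT was wide, -0.27 to 0.46. The standard error over its beads had a median of 9.10% of the mean, beside 3.41% to 4.12% for the brightest probes of the other 8 genes. Antizyme protein is made by a frameshift during translation that polyamines promote, and arrays do not measure that step.

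AZIN1, a relative of ornithine decarboxylase without its activity that binds antizyme in its place, had 10.23, 10.24 and 10.28 in DHT, 10.67, 10.55 and 10.55 in enzalutamide, 10.61, 10.53 and 10.61 in the combination, and 10.38, 10.60 and 10.50 in vehicle. All 3 DHT arrays lay below all 9 others. Against vehicle the log2 difference was -0.25 ± 0.08 (SE), with a 95% interval of -0.43 to -0.07, just outside the threshold (limma, adjusted p = 0.0535). It passed under 9 of 28 alternative settings, and had a negative sign in all 28, but was close to 0 with the mean of its probes (-0.02) and under median scaling over all probes (-0.01). The other AZIN1 probes were dim, with differences of -0.12 ± 0.24 and 0.30 ± 0.24, each with an interval that includes 0.

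**Figure D2:**
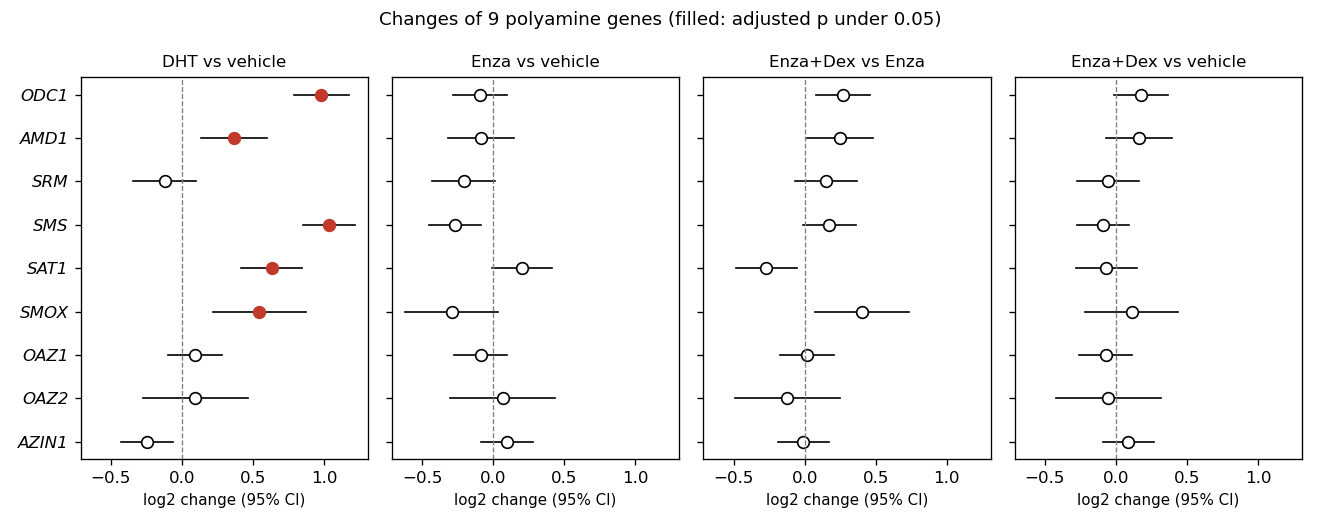
Log2 change of each gene with its 95% interval in 4 comparisons, the first-named group minus the second as written above each panel, filled where the adjusted p (limma) was under 0.05. The 5 filled points all lie in the comparison of DHT with vehicle, between 0.36 and 1.03.

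Enzalutamide against vehicle asked how these genes respond when the androgen receptor is blocked in complete medium. Of the 9 genes 0 were called, where 1.83% of all genes were (limma), and from 0.674% to 1.55% with 1 array left out. Only SMS had an unadjusted p under 0.05, a cut at which the share of all genes was not computed, so nothing is read from it. The median change of the 9 was -0.09, beside 0.01 over all genes. The SMS difference was -0.27 ± 0.08 on its brighter probe and -0.37 ± 0.09 on the other, and on both probes the 3 enzalutamide arrays lay below the 3 vehicle arrays (limma, adjusted p = 0.157 for the brighter). It was the 1 gene of the 9 without overlap, where 20.1% of all genes did not overlap, 9.67% downwards. The call is made under 3 of the 28 alternative settings, 1 of which averages both probes.

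The other 8 genes had an unadjusted p above 0.05 with enzalutamide. ODC1 and AMD1 had differences of -0.09 each, with 95% intervals of -0.29 to 0.10 and -0.32 to 0.14. SAT1 had 0.20, opposite in sign to SMS, with an interval of -0.01 to 0.42 (limma, adjusted p = 0.378). SMOX had -0.29, which was -0.09 without enzalutamide replicate 3 and -0.45 without enzalutamide replicate 2. SRM had -0.21, while OAZ1, OAZ2 and AZIN1 lay between -0.09 and 0.10.

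DHT set directly against enzalutamide spans added and blocked androgen signalling, although it shares its arrays with the comparisons above. Here 5 genes rose and 1 fell, where 29.2% of all genes were called, 14.6% up and 14.7% down. Without overlap, 6 were higher and 1 lower, where 45.1% of all genes did not overlap, 22.6% up and 22.5% down. SMS was 2.46-fold higher in DHT (log2 1.30 ± 0.08, limma, adjusted p = 5.69e-07) and ODC1 2.11-fold higher (1.07 ± 0.09, limma, adjusted p = 3.62e-06). SMOX was 1.79-fold, AMD1 1.37-fold and SAT1 1.35-fold higher. The SMOX change, 0.84 on the log2 scale, was 0.39 with no background correction and still passed. Within the technical sets, where 1 group of each comparison is a single array assumed to vary like the others, ODC1 and SMS passed in both and SMOX in the first (0.78, against 0.82 in the second). The AMD1 changes there were 0.54 and 0.31 and those of SAT1 0.51 and 0.47, and these did not pass, nor did either gene under median scaling over all probes (0.56 and 0.44). With the technical set as a block all 5 passed. AZIN1 fell by 0.34 (SE 0.08, limma, adjusted p = 0.00868), a call that held with the technical set as a block (-0.35, limma, adjusted p = 0.0101). It ended within the technical sets (-0.44 and -0.27), under median scaling over all probes (-0.26) and when its probes were averaged (-0.09). OAZ1 was 0.18 higher and did not pass (limma, adjusted p = 0.14).

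Adding dexamethasone to enzalutamide asked whether a glucocorticoid acts on these genes while the androgen receptor is blocked. With the combination against enzalutamide alone, 0 of the 9 genes were called, where 3.5% of all genes were (limma). That share ran from 1.94% to 3.7% with 1 array left out. The unadjusted 95% intervals of ODC1, AMD1, SMOX and SAT1 excluded 0. The share of all genes at that cut was not computed, so no excess is read from it. Without overlap between the groups, 4 genes were higher (ODC1, AMD1, SMS and SMOX) and 1 lower (SAT1), while 23.5% of all genes did not overlap, 11.7% up and 11.8% down. ODC1 had a log2 difference of 0.27 ± 0.09, with a 95% interval of 0.08 to 0.46 (limma, adjusted p = 0.146), and its 3 combination arrays also lay above all 3 vehicle arrays. SMOX had 0.40 ± 0.15 (limma, adjusted p = 0.213), which was 0.20 without enzalutamide replicate 3 and 0.17 with no background correction. AMD1 had 0.25 ± 0.11 (limma, adjusted p = 0.293) and SMS 0.17 ± 0.08 (limma, adjusted p = 0.372). SAT1 had -0.27 ± 0.10 (limma, adjusted p = 0.203). Both SMS probes had the same sign, with 0.26 ± 0.09 on the dimmer.

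Against vehicle, the combination left 0 of the 9 called, where 1.1% of all genes were, and 0.284% to 0.8% with 1 array left out. The differences lay between -0.09 for SMS and 0.18 for ODC1, each with an interval that includes 0. Only ODC1 and SMOX, both higher, did not overlap between these groups, where 17.4% of all genes did not, 9% upwards. By group means the order for ODC1 was DHT, combination, vehicle, enzalutamide, and only the last pair of neighbours overlapped. For SMS the order was DHT, vehicle, combination, enzalutamide, with an overlap between vehicle and combination alone. For SAT1 it was DHT, enzalutamide, vehicle, combination, where only DHT stood apart from its neighbour.

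Whether dexamethasone and DHT changed a gene differently was tested as the dexamethasone change minus the DHT change, from groups that share no array. In this test 3 of the 9 genes were lower and 0 higher, where 6.9% of all genes were called, 3.29% lower and 3.61% higher. SAT1 differed most, with a dexamethasone change of -0.27 against a DHT change of 0.63, a difference of -0.90 ± 0.14 (limma, adjusted p = 0.00244). SMS had 0.17 against 1.03, a difference of -0.86 ± 0.12 (limma, adjusted p = 0.00132), and ODC1 0.27 against 0.98, a difference of -0.71 ± 0.12 (limma, adjusted p = 0.00516).

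For SMOX the difference was -0.14, with a 95% interval of -0.61 to 0.32, and for AMD1 -0.11, with an interval of -0.44 to 0.21, so neither was shown to differ between the agents. Within the technical sets the ODC1, SMS and SAT1 differences lay between -0.66 and -0.97 and 0 passed, with 1 or 2 arrays in each group, where 1 gene and 15 genes of all tested were called. Under median scaling over all probes they were -0.75, -0.88 and -0.97 and 0 passed, where 1.53% of all genes were called. With the technical set as a block all 3 passed (limma, adjusted p = 0.00415, 0.00163 and 0.0013). The doses differ (0.1 nM DHT and 100 nM dexamethasone), and dexamethasone was given with enzalutamide while DHT was given alone.

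**Figure D3:**
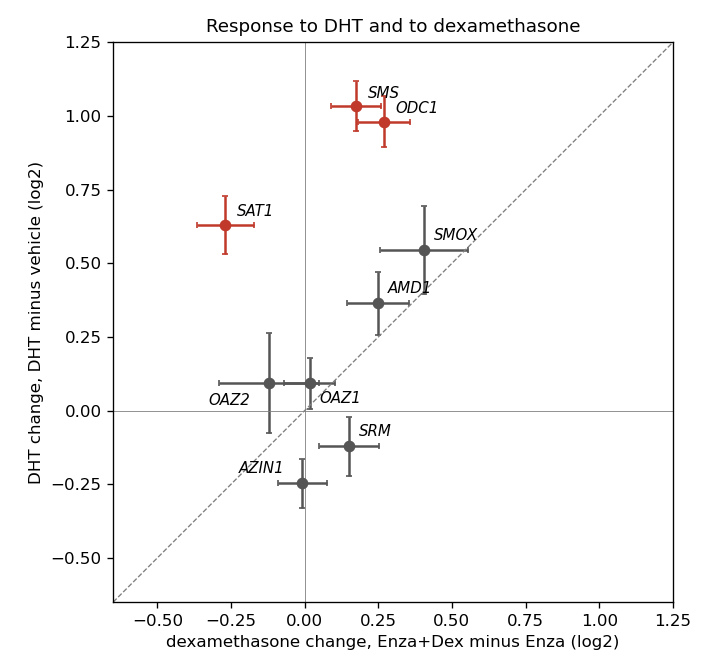
Log2 change with dexamethasone (combination minus enzalutamide, horizontal) and with DHT (DHT minus vehicle, vertical) for the 9 genes, with standard errors as bars and the line of equal change dashed. SAT1, SMS and ODC1, in red, differed between the agents at an adjusted p under 0.05, while AMD1 and SMOX lie near the dashed line.

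The genes around the pathway were counted over 6 lists that hold 48 genes, 38 of them tested. With DHT against vehicle, 5 rose and 9 fell, where 11% of all genes were called up and 10.7% down, the shares against which the counts of each list below stand. With enzalutamide against vehicle 1 rose and 0 fell, where 1.83% of all genes were called. With the combination 0 were called against enzalutamide or vehicle, where 3.5% and 1.1% of all genes were. The median DHT change over the 38 was -0.08, beside 0.01 over all genes.

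Of 7 tested genes of ornithine supply, 1 rose and 2 fell with DHT. ARG2, the mitochondrial arginase that makes ornithine from arginine, had 9.25, 9.08 and 9.08 in DHT and 9.78, 9.87 and 9.81 in vehicle. It fell by 0.68 on the log2 scale (SE 0.09, limma, adjusted p = 0.000262), while ODC1, which uses ornithine, rose. SLC7A1, a carrier of arginine and ornithine, changed by -0.32 ± 0.10. AGMAT, annotated as an agmatinase, an activity that in bacteria gives putrescine by another route, changed by 0.51 ± 0.12 and was the 1 gene of the list that rose.

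Of the 3 genes of other catabolism and antizyme, 1 rose: OAZ3, an antizyme known from testis, by 0.44 ± 0.11. PAOX, the oxidase of acetylated polyamines, had 0.43 and was not called. In the methionine cycle and methylthioadenosine salvage, 3 of 13 tested genes rose and 2 fell. MTAP, which cleaves the methylthioadenosine left over by SRM and SMS, fell by 0.47 (SE 0.11), and AHCY, which hydrolyses S-adenosylhomocysteine, fell by 0.37 (SE 0.09).

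Among the 3 that rose were AHCYL2, a relative of AHCY, by 0.60 ± 0.12, and GNMT, which spends S-adenosylmethionine on glycine. GNMT was detected on 3 DHT arrays, 0 enzalutamide, 3 combination and 1 vehicle array. Its fitted change with DHT against vehicle was 0.95 ± 0.14 (limma, adjusted p = 0.000456), with the undetected vehicle arrays at their measured values. Between DHT and enzalutamide the measured values gave an adjusted p of 5.89e-05 (limma). GNMT was at least 1.87-fold higher in DHT than in enzalutamide, a bound that was not itself tested. This bound takes the dim arrays at their lowest detected signal, or at the probe's own value where that is higher.

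Hypusine synthesis, which spends spermidine on the translation factor EIF5A, had 0 of 4 genes called in any comparison. Of 6 tested transport genes, 1 fell with DHT: SLC18B1, a vesicular polyamine transporter. It was detected on 0 of 3 DHT arrays and on all 9 others, with 6.61, 6.69 and 6.73 in enzalutamide and 6.32, 6.12 and 6.07 in vehicle. It was at least 2.31-fold lower in DHT than in vehicle, by the same kind of bound as for GNMT. The bound was not tested, and the measured values gave an adjusted p of 5.81e-07 (limma). With enzalutamide against vehicle SLC18B1 rose by 0.51 ± 0.09 (limma, adjusted p = 0.0165). It was the only gene of the 38 called with enzalutamide against vehicle, where 1.83% of all genes were called.

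Among the regulators of ODC1 transcription, 4 of 5 tested genes fell with DHT and 0 rose, where 10.7% of all genes were called down. MYC, known to bind the ODC1 gene as a dimer with MAX, had 9.13, 9.23 and 9.21 in DHT, 11.10, 11.02 and 10.90 in enzalutamide, 10.87, 10.78 and 10.78 in the combination, and 10.77, 10.56 and 10.62 in vehicle. The DHT arrays were far below all others. MYC fell by 1.46 on the log2 scale (SE 0.09, limma, adjusted p = 8.58e-07), on the same 3 arrays where ODC1 was highest. A link between the MYC and ODC1 changes was not tested, and MYC protein and its binding were not measured.

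MAX, the partner, fell by 0.66 (SE 0.16), and 2 of its 3 kept probes had that sign. The MAX probe tested was dim, with 5.34, 5.34 and 5.22 in DHT and 5.70, 5.87 and 6.32 in vehicle. The highest value was on vehicle replicate 3, the dimmest array. The enzalutamide arrays, at 5.62, 5.45 and 5.13, overlapped those of DHT. MNT and MXD1, which pair with MAX as repressors, fell by 0.36 (SE 0.09) and 0.26 (SE 0.08). With enzalutamide against vehicle MYC had a difference of 0.36 ± 0.09 and was not called (limma, adjusted p = 0.0699). In the test of dexamethasone against DHT, MYC was among 3 of 5 tested regulators whose changes differed, by 1.26 ± 0.12 (limma, adjusted p = 0.000132). Of all genes 6.9% were called in that test, 3.61% higher.

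**Figure D4:**
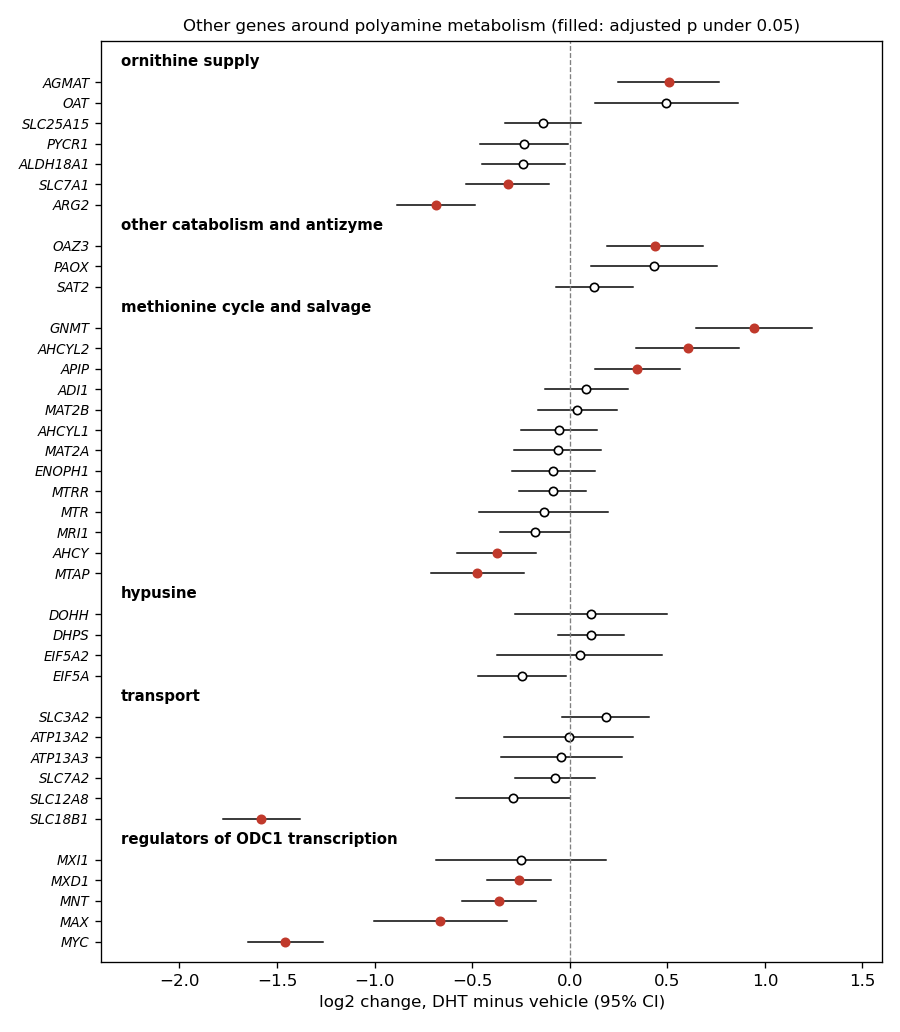
Log2 change with DHT against vehicle and its 95% interval for the 38 tested genes of 6 lists around the pathway, filled where the adjusted p (limma) was under 0.05. MYC and SLC18B1 lie farthest to the left and GNMT farthest to the right, and the SLC18B1 point is a fitted value for a gene not detected in DHT.

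The genes whose values over the 12 arrays lay nearest to ODC1, SMS and SAT1 were named by the root-mean-square difference of log2 values, each gene set against its own vehicle mean. Nearest to ODC1 were SEC14L1 (0.09), DCAF6 (0.12), ADRA2A (0.13), ADGRG2 (0.13) and RRBP1 (0.14). Nearest to SMS were HNMT (0.09), CKB (0.09), SLC26A2, LPXN and YIPF1 (0.11 each). Nearest to SAT1 were NWD1 (0.10), RGCC (0.10), GNB4 (0.11), PRKCA and SLC4A2 (0.12 each). Between the members themselves the difference was 0.18 for ODC1 and SMS, 0.28 for ODC1 and SAT1, and 0.33 for SMS and SAT1, and all of these share the same 12 arrays.

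Pseudogenes were counted in RefSeq by names formed from the gene symbol, the letter P and any number, so other names were not counted. There were 4 for AMD1, 3 for SRM, 1 for SMS and 1 for OAZ1, and 0 for ODC1, SAT1 and SMOX. Cross-hybridization of the probes with pseudogene transcripts was not tested, and probe sequences were not used here.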

How the data were processed

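Total RNA of 12 VCaP cultures was labelled as cRNA and hybridized to Illumina BeadChips. The deposited intensity of a probe is its mean over beads, not normalized between arrays, with the deposited bead count, standard error and detection p-value beside it; GenomeStudio is named per the submitters' processing notes (version not given in the sources used here). A second deposited table, intensities already processed by the authors, served as an alternative, with 42.45 added before log2.

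Background correction and quantile normalization used neqc (limma 3.58.1, R 4.3.3, offset 16, detection p-values in place of controls), giving log2 values from the deposited intensities. A probe was kept where its detection p was under 0.05 on 3 or more arrays (20265 of 47322), and a gene was represented by its brightest kept probe. The annotation gives 1 gene symbol for 30112 probes and several for 8, and leaves out 17202, which have no name here.

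A mean per group was fitted to all kept probes with lmFit and eBayes (8 residual degrees of freedom, 3.71 prior), two-sided, adjusted by Benjamini-Hochberg over 11414 genes at 0.05. The smallest p of an exact permutation test between groups of 3 is 0.1. The members, lists and tests were chosen with earlier results of these data known. Every member is named, and of each list up to 4 genes with the smallest adjusted p past the threshold in any pairwise comparison; PAOX was named after its value was seen. The number of arrays limits the precision. Alternatives covered filters, background correction, scaling, probe choice, blocks, array weights, the variance prior and leaving out each array. Promoter windows are RefSeq's, GRCh38.p14.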

Additional observations from a re-analysis of the deposited data

Results flagged for a closer look

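For 3 of the 9 genes the change that dexamethasone added under enzalutamide differed from the change with DHT, by a test of the difference itself, where 6.9% of all genes were called and 3.29% were lower. For ODC1 the difference was -0.71 on the log2 scale, for SMS -0.86 and for SAT1 -0.90 (limma, adjusted p = 0.00516, 0.00132 and 0.00244). ODC1 and SMS had the same sign with both agents, and SAT1 had opposite signs. The dexamethasone change itself was not called for ODC1, SMS or SAT1 (limma, adjusted p = 0.146, 0.372 and 0.203). In the combination SAT1 differed from vehicle by -0.07 (limma, adjusted p = 0.845). Leaving out each of the 12 arrays in turn kept all 3 calls, and so did the technical set as a block. With arrays scaled to a common median over all probes, or within either technical set, 0 of the 3 passed, at differences between -0.66 and -0.97, where 1.53%, 0.00876% and 0.131% of all genes were called. No group had the 4 arrays that a check for an outlying array needs.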

How the results depend on the processing

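Of 28 alternatives to the main settings, 12 left out 1 array each, and 3 (median scaling over all probes, an intensity trend in the prior, and a prior from the genes' brightest probes) were chosen after seeing the data. Over single members and comparisons, 1427 alternative values kept their direction and side of the threshold, 33 fell below it, 17 passed it and 35 changed sign. The rise of ODC1, SMS and SAT1 with DHT against vehicle passed in every alternative but the second technical set.

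With DHT against vehicle, fewer members and fewer of all genes were called within the technical sets, with 1 or 2 arrays in each group. There the changes of the 5 genes called in the main fit were 0.38 to 1.08 in the first set. In the second set they were 0.34 to 0.95. Without 1 array the number of members called up ran from 3 to 5, where 16.7% to 21.4% of all genes were called, against 21.7%. The number called down was 1 (AZIN1) with no filter, a stricter filter, no background correction, normexp with an offset of 50, the authors' table, array weights, the trend or the other prior, and from 0 to 1 without 1 array. With enzalutamide against vehicle, 1 (SMS) was called down with no background correction, the mean of a gene's probes or the trend. With the combination against enzalutamide, 1 was called up (ODC1) and 1 down (SAT1) with no background correction or the trend. With DHT against enzalutamide, 3 were called up within the first set, 2 within the second and 3 under median scaling over all probes (7.5%, 10% and 12.7% of all genes were called, against 29.2%), and 0 down under these and with the mean of a gene's probes. The difference between dexamethasone and DHT had 0 calls within either set and under median scaling over all probes. The cause of these shifts was not tested, though each set holds fewer arrays.

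Median scaling over all probes moved the median of all genes by up to 0.20 (log2, combination against vehicle), so signs there are relative to that shift. No member past the threshold changed sign. With DHT against vehicle, OAZ1 became -0.00181 under median scaling over kept probes and SRM 0.0923 over all probes, and OAZ2 ranged from -0.0155 to 0.23 without 1 array. With enzalutamide against vehicle, median scaling over all probes gave 0.0364 for ODC1, 0.0476 for AMD1 and 0.0961 for OAZ1, the first set -0.0294 for OAZ2, the second 0.0333 for AMD1, and OAZ2 ranged from -0.14 to 0.24 without 1 array. With the combination against enzalutamide, OAZ1 became -0.00406 under median scaling over kept probes and -0.0131 within the second set, and ranged from -0.00244 to 0.0475 without 1 array. AZIN1 became 0.0452 under median scaling over kept probes, 0.105 over all probes, 0.0394 with the mean of its probes and 0.0173 within the second set. Without 1 array it ranged from -0.0297 to 0.0311, and OAZ2 from -0.292 to 0.0856. With the combination against vehicle, median scaling over all probes gave 0.20 for SRM, 0.18 for SMS, 0.19 for SAT1, 0.15 for OAZ1 and 0.20 for OAZ2, and over kept probes 0.00023 for OAZ2. The first set gave 0.0111 for SRM, and without 1 array SRM ranged from -0.123 to 0.0348 and OAZ2 from -0.163 to 0.0789. With DHT against enzalutamide, SRM became -0.0212 within the second set and OAZ2 ranged from -0.14 to 0.23. In the difference between agents, AMD1 became 0.11 within the first set and SMOX ranged from -0.346 to 0.0205.

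The replicate numbers were not taken to pair the cultures in the main fit. Of 18 same-numbered pairs of arrays 11 deviated together (r over 0.1, range -0.08 to 0.22). Of 12 arrays, 9 were closest to their own number, and these values give no ground against pairing. With a replicate block, 5 genes were called up and 0 down with DHT against vehicle, and no member's call changed in any comparison. The counts over all genes moved by over 1.5 times under some settings: with DHT against vehicle, 2476 became 767 and 228 within the sets and 1169 under median scaling over all probes. Without 1 array, 209 became 76 to 174 with enzalutamide against vehicle, and with the combination 400 became 219 to 420 against enzalutamide and 125 became 32 to 90 against vehicle. Of these 3, the trend gave 429, 627 and 260, no background correction 410, 614 and 253, and the sets 0 to 27. The difference between agents had 788 calls, 1210 with no background correction and 1228 with the trend.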
